A study of Mus musculus with 9 samples.

Results

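Chemokine receptors are described here in whole-lung RNA of BALB/c mice from a model of allergic airway inflammation. The 9 genes are Ccr1, Ccr2, Ccr3, Ccr4, Ccr6, Ccr7, Ccr8, Cxcr3 and Cxcr4, and they were chosen by the gene symbol that the array gives to a probe. Each was represented by 1 probe, which makes 9 of 39464 probes and 9 of 25756 named genes. The study hybridised 9 Agilent arrays of 2 colours. On 5 of them, labelled OVA, the Cy5 channel (channel 2) held, by the labels, the lung of a mouse challenged with ovalbumin. Ovalbumin is an egg protein used as an allergen. On 4 arrays, labelled PBS, channel 2 held, by the labels, the lung of a mouse treated with phosphate-buffered saline. By the labels the Cy3 channel (channel 1) of all 9 arrays held a pool of RNA from the PBS-treated lungs. All mice were BALB/c and about 12 weeks old. Whether each lung stems from a separate mouse is not given in the labels, and the p-values cover only the spread among these samples.

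Chemokine receptors are G protein-coupled receptors of leukocytes. They sense gradients of chemokines, small secreted proteins, and steer the cells that carry them into, through and out of tissue. In allergic lungs, Ccr2 is known for monocytes, Ccr3 for eosinophils, Ccr4 and Ccr8 for type 2 helper T cells, Cxcr3 for type 1 helper and cytotoxic T cells, Ccr6 for cells drawn to mucosal epithelium, Ccr7 for traffic to lymph nodes and Cxcr4 for retention of leukocytes by Cxcl12.

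In the ratio of channel 2 over channel 1, 5 of the 9 receptor genes were higher on the OVA than on the PBS arrays and none was lower (limma, adjusted p under 0.05). Ccr2 had the largest change, 3.64-fold, followed by Ccr6 at 1.60-fold, Ccr1 at 1.49-fold, Ccr4 at 1.49-fold and Cxcr3 at 1.42-fold. Rounding of the deposited intensities alone allows log2 changes from -0.05 to 1.22 for Ccr1 and from -0.87 to 2.06 for Ccr4. Ccr6 kept its call in 16 of 21 alternatives of scaling, filter, model and left-out array. Ccr3, Ccr7, Ccr8 and Cxcr4 did not pass the test. Over all 25715 genes tested, 40.3% passed it, 17.3% as higher and 23% as lower. The median log2 change was 0.51 over the 9 receptor genes and -0.02 over all genes tested. With 0.05 added to both channels, these medians were 0.20 and -0.01. Without the dimmest 0.25 of probes, they were 0.25 over the 6 receptor genes left and -0.02 over all genes left. At the same threshold with a change of at least 2-fold, 1 of the 9, Ccr2, was higher, against 2.46% of all genes. When OVA ratios were turned in sign, Ccr2 was the 1 receptor gene lower by that rule, against 2.43% of all genes.

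These directions follow the ratio as deposited, and the channels taken singly do not match what the labels say of them. For Ccr1, Ccr2, Ccr6 and Cxcr3 the 2 sets of arrays did not overlap in channel 1, which by the labels held the same pool throughout, and all 4 were lower on the OVA arrays, as were 11.2% of the 25650 genes with a value on every array. In channel 1 alone, 4 of the 9 differed between the OVA and the PBS arrays (Ccr1, Ccr2, Ccr6 and Cxcr3), all lower on the OVA arrays, where 27.6% of all genes differed and 12% were lower. If channel 1 held the same pool, as labelled, its errors and p-values cover the spread between hybridisations and not between mice. In channel 2 alone, which by the labels held the lungs compared, 0 of the 9 differed (limma, none at an unadjusted p under 0.05), and 2 of all 25715 genes did (0.00778%, 931 at an unadjusted p under 0.05). When OVA ratios were turned in sign, 4 receptor genes were lower and none was higher, where 39% of all genes passed, and Ccr4 no longer did. Taken alone against a log2 ratio of 0, the OVA arrays gave the same count as the comparison, 5 higher and none lower, where 46.1% of all genes passed. Where the pool and the lungs lay on the OVA arrays was not tested. On these arrays the SD of log2 intensity in channels 1 and 2 was 0.32 and 0.04 for Ccr6. It was 0.21 and 0.04 for Ccr7 and 0.19 and 0.08 for Cxcr4. On the PBS arrays these genes had 0.05 and 0.34, 0.06 and 0.15, and 0.08 and 0.14. Cxcr3 had the same order by a small margin. The order was the reverse for Ccr1 and Ccr4, and Ccr2, Ccr3 and Ccr8 had it on only 1 set of arrays. In the following, higher and lower refer to the deposited ratio on arrays as labelled.

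Some values of the whole series bear on all of this. Between 39376 and 39451 probes had a value on an array, the median intensity in a channel lay between 0.12 and 0.17 on the deposited scale, and the highest intensity was 70.2. Intensities above 0.01 are given in steps of 0.01. Across genes, which are no independent replicates, the correlation between the log ratios of 2 arrays was 0.747 to 0.873 within the OVA set and -0.289 to 0.142 within the PBS set. Of the lung markers, the surfactant protein genes Sftpc and Sftpb were bright on the OVA arrays (means of 31.7 and 36.5 in channel 2, 36.3 and 41.1 in channel 1) and blank on all PBS arrays. Cldn18, of lung epithelium, had OVA array means of 32 (channel 2) and 41.2 (channel 1), against 38 and 38.5 on the PBS arrays, but too few values to be tested. Of the 3 lung markers tested, the epithelial Epcam was higher and the endothelial Pecam1 and Cdh5 were lower, and the other 3 of the list were not matched to a probe. In whole-lung RNA, fewer cells of a type and less RNA per cell cannot be told apart.

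**Figure D1:**
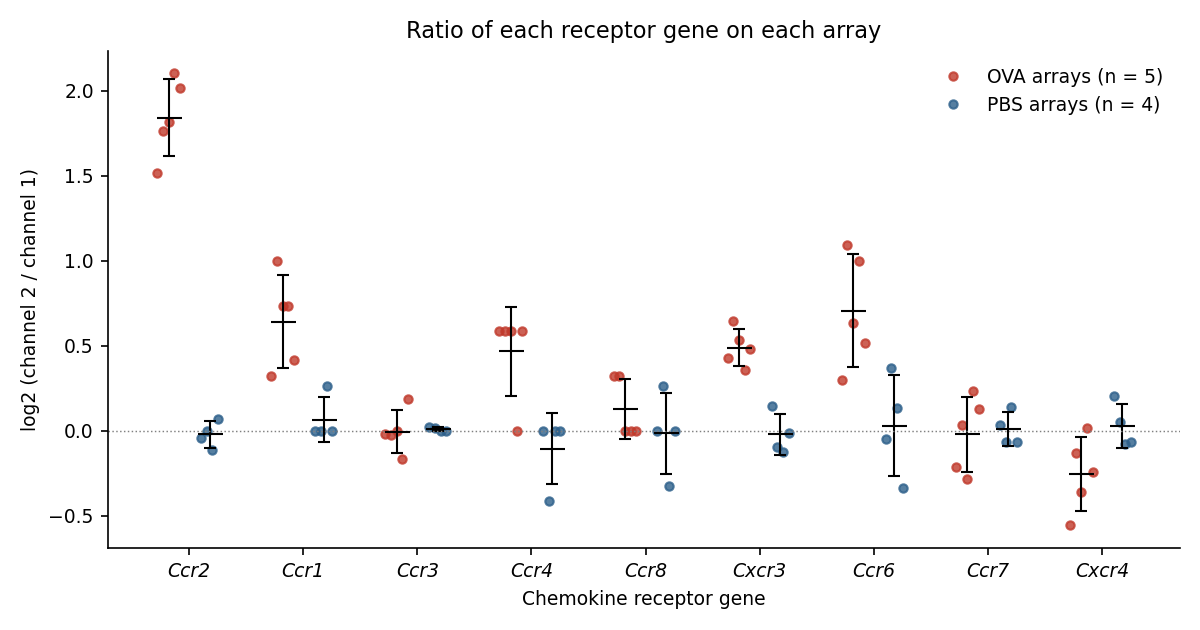
Log2 of channel 2 over channel 1 for each receptor gene on each array. Points are single arrays, 5 OVA (red, left) and 4 PBS (blue, right), and bars give the mean and SD. The OVA and PBS arrays do not overlap for Ccr2, Ccr1 and Cxcr3. The same holds for 34.5% of the 25650 genes with a value on every array. Ccr2 is highest, between 1.52 and 2.10 on the OVA arrays.

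The stretches upstream of the transcription start are shown for Ccr2, Ccr1 and Ccr3, which lie next to each other on chromosome 9 with only the related gene Ccr1l1 among them, and which differed in their ratio. Cxcr3 is shown beside them as a chemokine receptor gene of T cells whose ratio groups did not overlap. That lack of overlap was shared by 34.5% of the genes with a value on every array. RefSeq promoter windows on GRCm38.p6 were at hand for 8 of the 9 receptor genes (all but Ccr7). The sequences are the 150 bases before the start, 5′ to 3′. They lie at chr9:124102033-124102182 on the plus strand for Ccr2, chr9:123968693-123968842 on the minus strand for Ccr1, chr9:124021821-124021970 on the plus strand for Ccr3 and chrX:101734148-101734297 on the minus strand for Cxcr3. Capitals mark matches, on either strand, to a GATA site (AGATAA or TGATAA), a RUNX site (TGTGGT or TGCGGT), a PU.1 core (GAGGAA) or a STAT6 site (TTC and GAA with any 4 bases in between).
Ccr2: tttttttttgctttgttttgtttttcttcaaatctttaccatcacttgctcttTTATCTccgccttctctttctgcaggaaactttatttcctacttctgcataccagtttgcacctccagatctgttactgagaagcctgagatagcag
Ccr1: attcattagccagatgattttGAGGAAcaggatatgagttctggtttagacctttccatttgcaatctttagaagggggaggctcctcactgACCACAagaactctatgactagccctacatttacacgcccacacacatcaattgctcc
Ccr3: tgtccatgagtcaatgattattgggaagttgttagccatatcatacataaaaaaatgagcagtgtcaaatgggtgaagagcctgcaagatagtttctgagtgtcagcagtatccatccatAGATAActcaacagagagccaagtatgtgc
Cxcr3: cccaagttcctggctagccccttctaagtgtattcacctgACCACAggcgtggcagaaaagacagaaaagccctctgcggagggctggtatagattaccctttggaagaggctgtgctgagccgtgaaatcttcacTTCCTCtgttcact
Ccr2 and Ccr3 each held 1 GATA match, starting 97 and 30 bases before the start. Ccr1 and Cxcr3 each held 1 RUNX match, starting 58 and 110 bases before it, and 1 PU.1 match, starting 129 and 14 bases before it. No STAT6 match was in these 4 windows, and no matches overlapped. Over the 32851 windows of the same length in the table, 9.65% held a GATA match, 11.4% a RUNX match, 14.5% a PU.1 match and 3.17% a STAT6 match. A match is a run of letters and not a measured site.

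The monocyte receptor gene Ccr2 (NM_009915), the receptor for Ccl2, Ccl7 and Ccl12, had the clearest change. Its intensity in channel 1 was 0.37, 0.30, 0.29, 0.27 and 0.24 on OVA arrays 1 to 5, against 1.03, 0.97, 1.07 and 0.99 on PBS arrays 1 to 4. In channel 2 it was 1.06, 1.02, 1.02, 1.16 and 0.97 on the OVA arrays, against 1.00, 0.97, 0.99 and 1.04 on the PBS arrays. The groups thus lay far apart in channel 1 and overlapped in channel 2. The log2 ratio averaged 1.84 ± 0.23 on the OVA arrays and -0.02 ± 0.08 on the PBS arrays (SD, n = 5 and 4), without overlap, as for 34.5% of the 25650 genes with a value on every array. The log2 change was 1.86 ± 0.11 SE (95% interval 1.60 to 2.12, limma adjusted p = 5.13e-06), and 0.774% of all genes tested had a higher one. When OVA ratios were turned in sign, it was -1.82, and 0.817% had a lower one. Channel 1 alone had a log2 difference of -1.80 ± 0.12 SE between OVA and PBS arrays (adjusted p = 4.84e-06) and channel 2 alone of 0.06 ± 0.07 SE (adjusted p = 0.874). In the authors' deposited table the p-value of Ccr2 lay between 9.71e-23 and 5.5e-15 on the OVA arrays and between 0.51 and 0.99 on the PBS arrays.

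Ccr1 (NM_009912), a receptor of monocytes, neutrophils and other leukocytes for Ccl3 and Ccl5 among others, was measured close to the lower end of the scale. Its intensity in channel 1 was 0.04 on OVA array 1 and 0.03 on the other 4 OVA arrays, against 0.06, 0.06, 0.05 and 0.05 on PBS arrays 1 to 4. In channel 2 it was 0.05, 0.06, 0.05, 0.05 and 0.04 on the OVA arrays, against 0.06, 0.06, 0.06 and 0.05 on the PBS arrays. The ratio groups did not overlap, as for 34.5% of the genes with a value on every array. But the whole difference in channel 1 spans only 1 to 3 steps of the deposited scale. The log2 change was 0.58 ± 0.14 SE (95% interval 0.25 to 0.90, adjusted p = 0.0109). If each intensity is taken to lie anywhere within 0.005 of its printed value, the log2 change could be from -0.05 to 1.22. With 0.05 added to both channels, it was 0.25 (adjusted p = 0.0157). In the authors' deposited table the p-value was under 0.05 on 4 of 5 OVA arrays and on 0 of 4 PBS arrays. For all probes with a value, that share lay between 14.9% and 17.4% on the OVA arrays and between 0.117% and 0.643% on the PBS arrays.

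Most markers of monocytes and macrophages moved with these receptor genes. Of 9 tested, 8 were higher and none was lower (median log2 change 1.29), Cd163, a scavenger receptor, by 12.7-fold and Mrc1, the mannose receptor, by 3.90-fold. Their summed intensity on the OVA arrays ranged from 9.88 to 11.2 in channel 1 and from 42.9 to 47.3 in channel 2. On the PBS arrays it ranged from 43.5 to 48.0 in channel 1 and from 42.9 to 46.2 in channel 2. The marker that did not pass was Marco (log2 change -0.25 ± 0.26 SE, limma adjusted p = 0.491). Ly6c2 was not matched to a probe, and the part of these markers in the change of Ccr2 and Ccr1 was not tested. Of 8 neutrophil markers, 1 was higher (Retnlg, 10.8-fold), 2 were lower (S100a8 and S100a9) and 5 did not pass (median log2 change 0.09). Of 8 mast cell and basophil markers, 3 were higher (Mcpt8 by 4.12-fold, Fcer1a and Cpa3), 2 were lower (Gata2 and Kit) and 3 did not pass (median log2 change 0.15). Fcer1a (limma adjusted p = 0.0497) and Cpa3 had mean intensities of at most 0.0375 and 0.078, a few steps of the deposited scale.

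**Figure D2:**
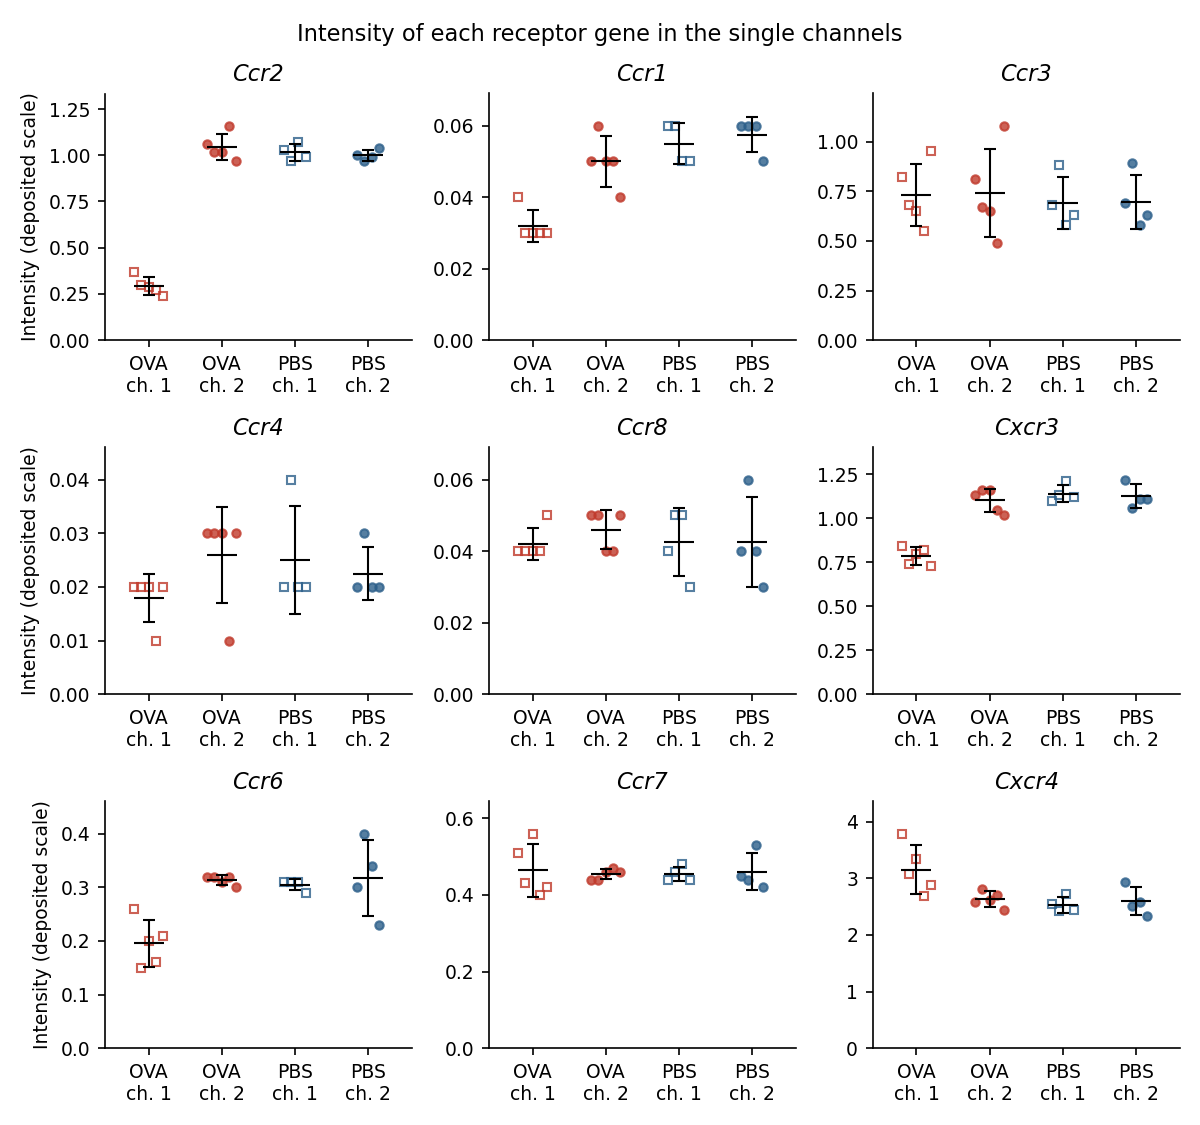
Intensity of each receptor gene on the deposited scale in channel 1 (open squares) and channel 2 (filled circles), on 5 OVA arrays (red) and 4 PBS arrays (blue), with mean and SD. For Ccr2, channel 1 of the OVA arrays lies between 0.24 and 0.37 and the other 3 sets of values between 0.97 and 1.16.

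Ccr3 (probe accession MMT00026375), the eotaxin receptor of eosinophils, did not pass the test, and its interval lay close to 0. Its channel 1 was at 0.82, 0.68, 0.65, 0.55 and 0.95 on OVA arrays 1 to 5, against 0.68, 0.88, 0.58 and 0.63 on PBS arrays 1 to 4. Its channel 2 was at 0.81, 0.67, 0.65, 0.49 and 1.08 on the OVA arrays, against 0.69, 0.89, 0.58 and 0.63 on the PBS arrays. The 2 channels of an array were nearly equal, while the arrays of each group differed among themselves. Over the 9 arrays the SD of the log2 intensity was 0.27 in channel 1 and 0.34 in channel 2, and that of the log2 ratio was 0.09. In channel 1 of the PBS arrays the SD of Ccr3 was 0.26, and 11.6% of the 19651 probes at or above the median intensity had a larger one (median 0.0875). Ccr3 was at a log2 change of -0.01 ± 0.06 SE (95% interval -0.15 to 0.13, adjusted p = 0.902).

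Among eosinophil markers, 2 of 5 tested were higher (Epx, eosinophil peroxidase, by 3.36-fold and the lipoxygenase gene Alox15 by 3.30-fold) and 1 was lower (Prg3, log2 change -0.08), with a median log2 change of 0.37. Alox15 had a mean intensity of 0.038 in channel 1 of the OVA arrays, a few steps of the deposited scale. The granule protein gene Prg2 was at 0.37 ± 0.14 SE on the log2 scale (adjusted p = 0.0715) and Il5ra, a receptor chain for Il5, at 0.28 ± 0.10 SE (adjusted p = 0.0544). Their summed intensity on the OVA arrays ranged from 0.43 to 0.60 in channel 1 and from 0.72 to 0.91 in channel 2. On the PBS arrays it ranged from 0.81 to 1.00 in channel 1 and from 0.78 to 1.01 in channel 2. The interval of Ccr3 lay below the changes of Epx and Alox15, and below those of Prg2 and Il5ra, which were not called. The change of Prg3 lay within it. Whether the probe measures the transcript of Ccr3 alone was not tested.

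Ccr4 and Ccr8, receptors of type 2 helper and regulatory T cells, were measured at the bottom of the scale. For Ccr4 (NM_009916), channel 1 was at 0.02 on 4 OVA arrays and 0.01 on OVA array 4, against 0.04 on PBS array 2 and 0.02 on the other 3 PBS arrays. Its channel 2 was at 0.03 on 4 OVA arrays and 0.01 on OVA array 4, against 0.03 on PBS array 2 and 0.02 on the other 3 PBS arrays. The groups overlapped in both channels and in the ratio. The log2 change was 0.57 ± 0.15 SE (95% interval 0.23 to 0.92, adjusted p = 0.0156), but rounding alone allows from -0.87 to 2.06. With 0.05 added to both channels it was 0.20 (adjusted p = 0.0189), and with the replicate number as a block the call was lost (adjusted p = 0.100). In the authors' deposited table the p-value of Ccr4 was under 0.05 on 0 of 5 OVA arrays and on 0 of 4 PBS arrays.

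For Ccr8 (NM_007720), channel 1 was at 0.05 on OVA array 5 and at 0.04 on the other 4 OVA arrays, against 0.04, 0.05, 0.05 and 0.03 on PBS arrays 1 to 4. Its channel 2 was at 0.05, 0.05, 0.04, 0.04 and 0.05 on the OVA arrays, against 0.04, 0.06, 0.04 and 0.03 on the PBS arrays. Ccr8 was at a log2 change of 0.14 ± 0.13 SE (95% interval -0.15 to 0.44, adjusted p = 0.426), with overlapping groups. Rounding allows from -0.55 to 0.84, a range that includes 0.

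Cxcr3 (NM_009910), the receptor of activated type 1 helper and cytotoxic T cells for Cxcl9 and Cxcl10, was measured well above the steps of the scale. Its channel 1 was at 0.84, 0.74, 0.80, 0.82 and 0.73 on OVA arrays 1 to 5, against 1.1, 1.13, 1.21 and 1.12 on PBS arrays 1 to 4. Its channel 2 was at 1.13, 1.16, 1.16, 1.05 and 1.02 on the OVA arrays, against 1.22, 1.06, 1.11 and 1.11 on the PBS arrays. Each OVA array lay below each PBS array in channel 1, while the groups overlapped in channel 2. The log2 ratio averaged 0.49 ± 0.11 on the OVA arrays and -0.02 ± 0.12 on the PBS arrays (SD, n = 5 and 4), without overlap. The ratios of 34.5% of the genes with a value on every array did not overlap either. The log2 change was 0.51 ± 0.07 SE (95% interval 0.34 to 0.68, limma adjusted p = 6.73e-04), and rounding allows only from 0.48 to 0.54.

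Ccr6 (NM_009835), the receptor for Ccl20 on T cells, B cells and dendritic cells, had the largest SD of the log2 ratio of the 9 receptor genes in both groups (0.33 on the OVA and 0.30 on the PBS arrays). Its channel 1 was at 0.26, 0.15, 0.20, 0.16 and 0.21 on OVA arrays 1 to 5, against 0.31, 0.31, 0.31 and 0.29 on PBS arrays 1 to 4. Its channel 2 was at 0.32, 0.32, 0.31, 0.32 and 0.30 on the OVA arrays, against 0.30, 0.40, 0.34 and 0.23 on the PBS arrays. The OVA arrays spread in channel 1 and the PBS arrays in channel 2, so that the ratio of PBS array 2 (log2 0.37) was above that of OVA array 1 (log2 0.30). The log2 change was 0.68 ± 0.20 SE (95% interval 0.22 to 1.13, adjusted p = 0.0252). The call was lost without OVA replicate 2 (adjusted p = 0.0502), OVA replicate 4 (0.0578), PBS replicate 1 (0.0649) or PBS replicate 4 (0.0706), and with the replicate number as a block (0.0573). Over 21 alternatives the adjusted p ranged from 0.0134 to 0.0706.

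Of 16 T cell markers, 10 were higher, 1 was lower and 5 did not pass (median log2 change 0.34), a smaller median than that of the monocyte markers. Icos and Cd5, surface proteins of activated T cells, were 1.86-fold and 1.83-fold higher, while Gata3, the type 2 helper transcription factor, was lower (log2 change -0.36). Their summed intensity on the OVA arrays ranged from 7 to 9.12 in channel 1 and from 9.66 to 10.96 in channel 2. On the PBS arrays it ranged from 10.04 to 10.97 in channel 1 and from 10.1 to 10.91 in channel 2. Of 8 B cell markers none was called (limma, 0 at an adjusted p under 0.05), with a median log2 change of -4e-04. The part of T cells in the changes of Cxcr3, Ccr4 and Ccr6 was not tested.

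Ccr7 (NM_007719), which guides naive T cells and mature dendritic cells to lymph nodes, had ratios on both sides of 0 in both groups. Its channel 1 was at 0.51, 0.43, 0.56, 0.40 and 0.42 on OVA arrays 1 to 5, against 0.44, 0.46, 0.48 and 0.44 on PBS arrays 1 to 4. Its channel 2 was at 0.44, 0.44, 0.46, 0.47 and 0.46 on the OVA arrays, against 0.45, 0.44, 0.53 and 0.42 on the PBS arrays. Ccr7 was at a log2 change of -0.03 ± 0.11 SE (95% interval -0.29 to 0.23, adjusted p = 0.870). Of 10 dendritic cell markers, 7 were higher and 2 were lower (median log2 change 0.87), Batf3, a transcription factor of these cells, and Itgax, the integrin CD11c, each by 6.66-fold. Fscn1, an actin-bundling protein of mature dendritic cells, was 2.28-fold higher. The lower ones were Zbtb46, a transcription factor of these cells (log2 change -0.28 ± 0.08 SE at the brightest of its 3 probes), and Cacnb3, a calcium channel subunit (-0.17 ± 0.03 SE). Their summed intensity on the OVA arrays ranged from 11.8 to 13.1 in channel 1 and from 33.7 to 35.4 in channel 2. On the PBS arrays it ranged from 34.2 to 35.7 in channel 1 and from 34.8 to 35.3 in channel 2. Itgax weighs heavily in these sums, with OVA array means of 2.84 in channel 1 and 18.9 in channel 2.

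Cxcr4 (NM_009911), the receptor for Cxcl12, did not pass the test. Channel 1 was at 3.79, 3.08, 3.35, 2.68 and 2.88 on OVA arrays 1 to 5, against 2.54, 2.42, 2.73 and 2.45 on PBS arrays 1 to 4. Channel 2 was at 2.58, 2.81, 2.61, 2.71 and 2.44 on the OVA arrays, against 2.93, 2.51, 2.59 and 2.34 on the PBS arrays. The groups overlapped in the ratio and in each channel. The log2 change of the ratio was -0.28 ± 0.12 SE (95% interval -0.55 to -0.02, adjusted p = 0.0909), and that of channel 1 alone was 0.31 ± 0.10 SE (adjusted p = 0.0556). Without OVA replicate 4 the change of the ratio was -0.35 ± 0.10 SE and passed (adjusted p = 0.0355).

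**Figure D3:**
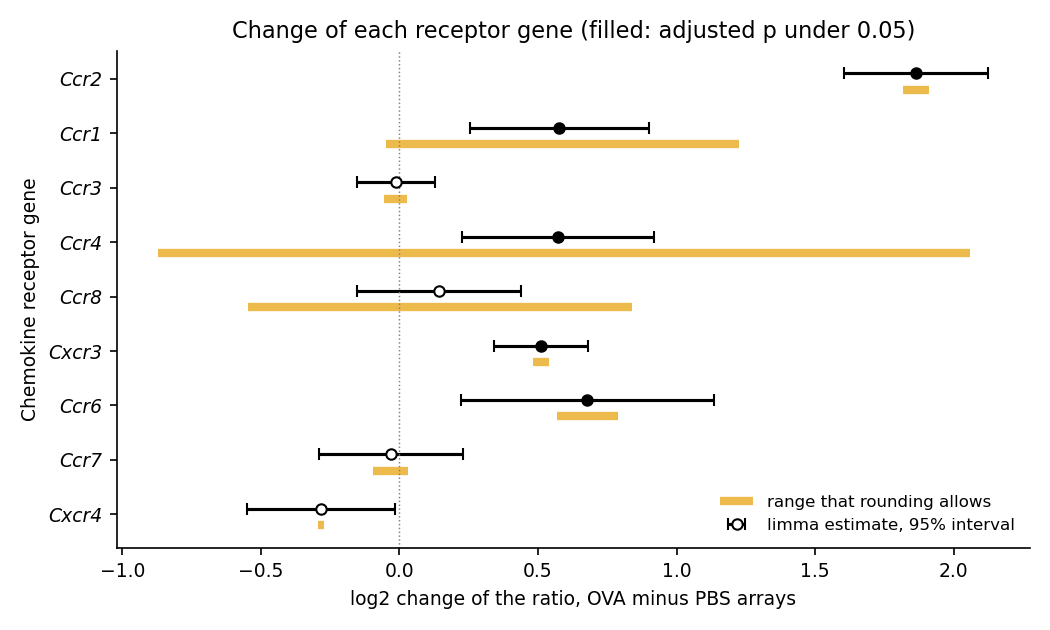
Log2 change of the ratio (OVA minus PBS arrays) of each receptor gene from limma with its 95% interval (black, filled where the adjusted p is under 0.05) and the range that rounding of the intensities to steps of 0.01 allows (orange). The orange range includes 0 for Ccr1 and Ccr4, which passed the test, and for Ccr3, Ccr7 and Ccr8, which did not, and for Ccr2 it runs from 1.82 to 1.91.

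Most ligand genes of these receptors were higher in the ratio. Of 20 ligand genes, 14 were higher, 2 were lower and 4 did not pass, with a median log2 change of 1.97. For Ccr2, all 3 ligand genes were higher, Ccl7 by 14.9-fold, Ccl2 by 7.88-fold and Ccl12 by 6.69-fold. For Ccr1, which shares Ccl7, Ccl9 was 5.04-fold, Ccl6 4.02-fold and Ccl3 2.81-fold higher. Ccl5 was at -0.15 ± 0.14 SE on the log2 scale (adjusted p = 0.444). In channel 1 of the OVA arrays, Ccl12, Ccl3 and Ccl7 had mean intensities of 0.05, 0.054 and 0.072, a few steps of the scale.

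Ccr3 and Ccr8 did not pass the test, while all their ligand genes but Ccl5, which Ccr3 shares with Ccr1, did. The eotaxin genes Ccl11 and Ccl24 were 15.7-fold and 3.82-fold higher, and Ccr3 was not called. Ccl8 and Ccl1, ligands of Ccr8 in the mouse, were 29.8-fold and 3.49-fold higher, and Ccr8 was not called at intensities of at most 0.06. For Ccr4, Ccl17 was 4.48-fold higher while Ccl22 was at a log2 difference of 0.04 ± 0.05 SE (adjusted p = 0.595). For Cxcr3, Cxcl9 was 8.78-fold and Cxcl10 6.96-fold higher, and Cxcl11 was at a log2 difference of 0.13 ± 0.10 SE (adjusted p = 0.341). Ccl20, the ligand of Ccr6, was 2.43-fold higher. Channel 1 means on the OVA arrays were 0.046 for Ccl1, 0.06 for Ccl24 and 0.08 for Cxcl9, a few steps of the scale.

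Among the ligands of Ccr7 and Cxcr4, 2 of 3 genes were lower at the probe used and none was higher. Ccl21a was lower (log2 change -0.45 ± 0.08 SE, adjusted p = 0.00259, at mean intensities of at most 0.072), and the mouse genome carries near-identical copies of this gene that a probe may not tell apart. Ccl19 was at a log2 difference of 0.72 ± 0.40 SE (adjusted p = 0.200). Cxcl12 was lower (log2 change -0.48 ± 0.08 SE, adjusted p = 0.00199), with a mean intensity on the OVA arrays of 20.8 (channel 1) and 14.9 (channel 2), against 14.4 and 14.5 on the PBS arrays. The 3 probes of Cxcl12 disagreed. The brightest gave that value, the next (mean intensity 6.39) a log2 change of 1.68 ± 0.09 SE (adjusted p = 3.41e-06 with each probe as its own test), and the dimmest (0.0206) was not called, so the direction of Cxcl12 depends on the probe. These comparisons share all 9 arrays, so their values are given side by side only.

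**Figure D4:**
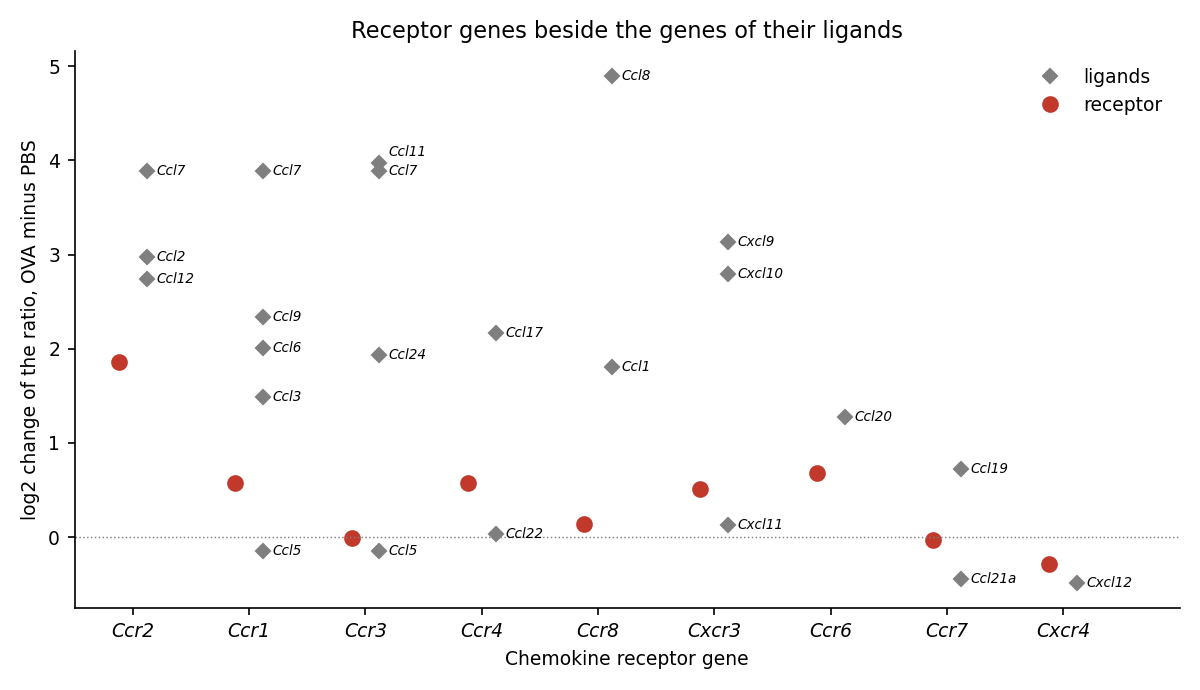
Log2 change of the ratio (OVA minus PBS arrays) of each receptor gene (red circles) beside the genes of its ligands (grey diamonds, named). Ccl8 stands highest at 4.90 above its receptor gene Ccr8 at 0.14, and Cxcl12 (its brightest probe; another of its 3 probes lies above 0) and Cxcr4 both lie below 0.

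Of 12 further chemokine receptor genes measured, 5 were higher and 4 were lower, with a median log2 change of 0.02. Higher were Cxcr6, a receptor of tissue T cells, by 2.02-fold, and Ccr9, a receptor of gut-homing T cells, by 1.98-fold. Also higher were Xcr1, a receptor of cross-presenting dendritic cells, by 1.58-fold, and Ackr1 and Cxcr2. Ccr9 and Xcr1 had mean intensities of at most 0.078, a few steps of the deposited scale. The atypical receptors Ackr4 and Ackr3, which take up chemokines without signalling through G proteins, were lower (log2 change -0.92 ± 0.12 and -0.55 ± 0.12 SE, adjusted p = 4.65e-04 and 0.00714). Ackr3 takes up Cxcl12, the ligand of Cxcr4. Also lower were Ccrl2 and Cx3cr1.

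Of 20 genes that carry or end the receptor signal, 9 were higher, 5 were lower and 6 did not pass (median log2 change 0.19). Higher were Rgs1 and Rgs16, which shorten G protein signals, by 4.26-fold and 3.52-fold, and Pik3r5, a subunit of the PI3 kinase that G proteins activate, by 2.30-fold at its brighter probe (the dimmer probe was not called). Rgs1 had a mean intensity of 0.058 in channel 1 of the OVA arrays, a few steps of the deposited scale. Rgs2, of the same family as Rgs1, was lower (log2 change -0.47 ± 0.08 SE). Of the receptor kinases, Grk5 and Grk6 were lower (log2 change -0.65 ± 0.03 and -0.70 ± 0.06 SE), as was Grk3 at its brighter probe (-0.19 ± 0.07 SE, limma adjusted p = 0.0430), and Grk2 was higher (0.31 ± 0.04 SE). With each probe as its own test, neither probe of Grk3 passed (limma adjusted p = 0.0508 and 0.0562). The dimmer of them was at a log2 change of 0.14 ± 0.05 SE, so the direction of Grk3 depends on the probe. The G protein subunit gene Gnai2, through which these receptors act, was at a log2 difference of 0.08 ± 0.12 SE (adjusted p = 0.656).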

How the data were processed

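Lung RNA went through 2 amplification rounds before hybridisation to 2-colour arrays, per the labels' protocols, with single lungs in Cy5 and a pool of PBS-treated lungs in Cy3. The submitters' processing notes name Agilent Feature Extraction 8.5.1.1. The deposited table gives an intensity for each channel and a p-value per probe and array, per the file headers. The intensity values had been scaled by the authors, but how is not given in the sources used here. A second deposited table holds log10 ratios, which equalled channel 2 over channel 1. The deposited p-value, whose test is not given in the sources used here, was only counted and printed.

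Probe symbols were updated with RefSeq names (GRCm38.p6, names only), and the brightest probe stood for a gene. Using R 4.3.3 and limma 3.58.1 (lmFit, eBayes), log2 ratios of 5 OVA arrays were set against those of 4 PBS arrays (two-sided, Benjamini-Hochberg over 25715 genes with at least 2 values per group, adjusted p under 0.05). Single channels were tested on log2 intensity without further scaling. The step was tested on simulated data. The number of arrays limits the precision. No slide or scan date was given.

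The receptor genes, lists, tests and most alternatives were chosen with earlier results of these data known. All 9 receptor genes are named, with all ligand genes and up to 3 called genes with large changes from other lists. Further list genes were named after their values were seen. Lists are described by counts, medians and, for some, summed intensities, with no test of a list. Bright genes weigh most in a sum.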

Additional observations from a re-analysis of the deposited data

Results flagged for a closer look

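In 54 sets of values (9 receptor genes, 2 groups, the ratio and both channels), 11 had a sample that stood apart from others that lay close together. The limits used give about 1 in 20 by chance for unrounded values in independent sets. These values are rounded and the ratios come from the channels, so the 11 cannot be held against that rate. For 10 of the 11 the probe is that of Ccr1, Ccr4 or Ccr8, where 1 step of the deposited scale is enough.

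For Ccr4, OVA replicate 4 had an intensity of 0.01 in both channels and a log2 ratio of 0.0, where the other OVA arrays had 0.02 in channel 1, 0.03 in channel 2 and a log2 ratio of 0.58. PBS replicate 2 had 0.04 in channel 1, 0.03 in channel 2 and a log2 ratio of -0.42, where the other PBS arrays had 0.02, 0.02 and 0.0. For Ccr1, OVA replicate 1 had 0.04 in channel 1 against 0.03 on the others, PBS replicate 3 had a log2 ratio of 0.26 against 0.0, and PBS replicate 4 had 0.05 in channel 2 against 0.06. For Ccr8, OVA replicate 5 had 0.05 in channel 1 against 0.04. For Ccr6, PBS replicate 4 had 0.29 in channel 1 against 0.31.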

How the results depend on the processing

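The count of 5 receptor genes, all higher, moved to 3 without the dimmest 0.25 of probes (which left 6 tested), to 3 with the replicate block, to 2 at an adjusted p under 0.01, to 1 with a change of at least 2-fold and to 0 in channel 2 alone. Without 1 array it was 4 or 5, and without OVA replicate 4 it was 4 higher and Cxcr4 lower. The count over all genes, 10364 of 25715 tested, was 10398 of 20516 tested without the dimmest 0.25 of probes. It was 7604 at an adjusted p under 0.01 and 782 with a change of at least 2-fold. In channel 2 alone it was 2, and without 1 array it was from 9143 to 10155. With OVA ratios turned in sign, the log2 change was -0.71 for Ccr1, -1.82 for Ccr2, -0.36 for Ccr4, -0.74 for Ccr6 and -0.47 for Cxcr3, which follows from the turn. In channel 1 alone it was -0.79, -1.80, -0.45, -0.67 and -0.54 for these genes, and in channel 2 alone -0.21 for Ccr1 and -0.027 for Cxcr3. Replicate numbers did not pair the arrays (same-number correlations of deviations from -0.153 to 0). The replicate block lost Ccr4 (adjusted p = 0.100) and Ccr6 (0.0573) and called 7661 genes. Ccr2 and Cxcr3 kept direction and call in 21 of 21 alternatives of scaling, filter, model and left-out array, and Ccr1 in 20 of 20, leaving aside the turned ratios, the single channels and the stricter thresholds above. Quantile normalised intensities with 0.05 added were chosen after seeing the data (5 receptor genes called), as was the turn in sign with a change of at least 2-fold (1 receptor gene, Ccr2, and 788 of all genes called). Where a call was lost, the cause was not tested, except fewer genes or arrays where these were left out.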
